A study of Arabidopsis thaliana with 9 samples.

Results

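The EXORDIUM genes of Arabidopsis thaliana encode a small family of secreted, wall-associated plant proteins. The 8 members were taken by locus code from 33473 listed genes, namely EXO (AT4G08950), PHI-1 (AT1G35140, also called EXL1), EXL2 (AT5G64260), EXL3 (AT5G51550), EXL4 (AT5G09440), EXL5 (AT2G17230), EXL6 (AT3G02970) and EXL7 (AT2G35150). They are the 8 genes whose RefSeq entry (assembly TAIR10.1) carries the domain note of the phosphate-induced protein, so the list holds the whole annotated family. The family was chosen by its values, since EXO and PHI-1 stood among the highest ratios of this table at 20 s against 0 s, and all values of that comparison are therefore given as a description.

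The question of the study, by its title, is how fast transcript levels respond. Shoots of accession Col-0, 21 days old and grown at 23 °C in continuous light of low intensity (50 µmol m-2 s-1), were sampled at 0 s (control), 20 s and 60 s of light at 1000 µmol m-2 s-1 and 21 °C. Each exposure had 3 pools of leaves from at least 30 plants, 9 samples in all, frozen by dipping the pots in liquid nitrogen. The table analysed here holds 1 FPKM value per gene and exposure (sequenced fragments scaled for the length of the transcript and the depth of the library), with no value for single pools, no error and no read depth. The differences below therefore have neither a replicate check nor a test, and the words higher and lower compare single deposited values. In bulk shoots, fewer cells of a type and less RNA per cell cannot be told apart.

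EXO was first described as a gene of dividing and growing tissue whose transcript is raised by brassinosteroids, steroid hormones that promote cell expansion, and the protein acts outside the cell in leaf and root growth. PHI-1 takes its name from a phosphate-induced gene of tobacco, and in Arabidopsis it has been linked to growth when carbon supply is low. The roles of the other members are less well known.

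The whole family shared a simple gene structure. Of the 8 genes, 7 had a single exon and 0 introns in the reference annotation, and EXL6 had 2 exons. Coding lengths ran from 837 bases (EXL4) to 1092 bases (EXL5), or 278 to 363 codons without the stop. Over the 28 pairs of members the coding sequences were between 60.2% and 81.3% identical at aligned bases, with a median of 64.3%. The 3 closest pairs were EXL2 with EXL4 (81.3%), EXO with PHI-1 (71.9%) and EXL3 with EXL5 (70.5%). An estimator of FPKM divides reads that fit several copies, so the longest run of identical bases in each of these pairs is shown, read from the coding strand 5′ to 3′ in the TAIR10.1 genome.
EXL2 and EXL4: ggagttgacggaatgattataaac
EXO and PHI-1: ccaccactagtggcaccaaacaa
EXL3 and EXL5: gtttgtggatttcactatttcac

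The run shared by EXL2 and EXL4 had 24 bases, the longest of the 28 pairs, and the runs of the other pairs shown had 23 bases each. The median over all pairs was 12 bases. The sources used here do not give the read length, so the share of reads that could fit more than 1 member is unknown.

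The promoters of EXO, PHI-1 and EXL3 are shown because EXO and PHI-1 had the highest ratios of the family and EXL3 the highest level. Each is the 250 bases before the annotated start (RefSeq, TAIR10.1), written 5′ to 3′ on the gene's strand, and capitals mark matches to the searched motifs on either strand. EXO is chr4:5739969-5740218 (plus strand), PHI-1 is chr1:12851733-12851982 (plus strand) and EXL3 is chr5:20940896-20941145 (minus strand).
EXO: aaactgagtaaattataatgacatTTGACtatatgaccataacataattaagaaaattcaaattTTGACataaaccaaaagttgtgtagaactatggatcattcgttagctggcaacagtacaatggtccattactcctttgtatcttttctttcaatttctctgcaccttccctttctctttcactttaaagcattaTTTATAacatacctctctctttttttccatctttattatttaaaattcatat
PHI-1: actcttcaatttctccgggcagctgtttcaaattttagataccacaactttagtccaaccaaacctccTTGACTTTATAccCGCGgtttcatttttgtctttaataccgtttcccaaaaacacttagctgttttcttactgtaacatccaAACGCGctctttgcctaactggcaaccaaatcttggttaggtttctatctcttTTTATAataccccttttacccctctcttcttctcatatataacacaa
EXL3: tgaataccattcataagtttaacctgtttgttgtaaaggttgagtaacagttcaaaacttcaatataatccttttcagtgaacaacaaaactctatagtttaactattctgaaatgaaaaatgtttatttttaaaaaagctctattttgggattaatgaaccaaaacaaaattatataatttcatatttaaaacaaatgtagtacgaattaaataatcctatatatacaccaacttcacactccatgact

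Searched were the rapid stress response element, written CGCGTT, and the shorter core bound by CAMTA calmodulin-binding factors that lies within it, written CGCG. The G-box was searched as CACGTG. The brassinosteroid response element was searched in a form ending in TG, CGTGTG. Its other searched form, ending in CG, was CGTGCG. The core of the W-box, bound by WRKY factors, was searched as TTGAC. The TATA box was searched as TATAAA. PHI-1 was the 1 member with CGCGTT, on the minus strand from base -100 to -95 counted from the annotated start, and 2.59% of 27438 protein-coding promoters of the same length hold that motif. It was also the 1 member with CGCG, at 2 places, against 10.1% of all promoters. TTGAC stood in 3 members (EXO at 2 places, PHI-1 and EXL6), against 44.9% of promoters. TATAAA stood in 5 members (EXO, PHI-1, EXL4, EXL5 and EXL6), against 47.4%, and in PHI-1 a TATAAA match on the minus strand directly follows TTGAC. The G-box, found in 6.49% of promoters, and the brassinosteroid response element, found in 5.37% of promoters in its form ending in TG and in 1.57% in the other, were in 0 of the 8 windows. A match is a description of the letters and not evidence of a bound site, and the annotated starts of RefSeq and of the deposited table differ by 0 to 280 bases for these genes.

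**Figure D1:**
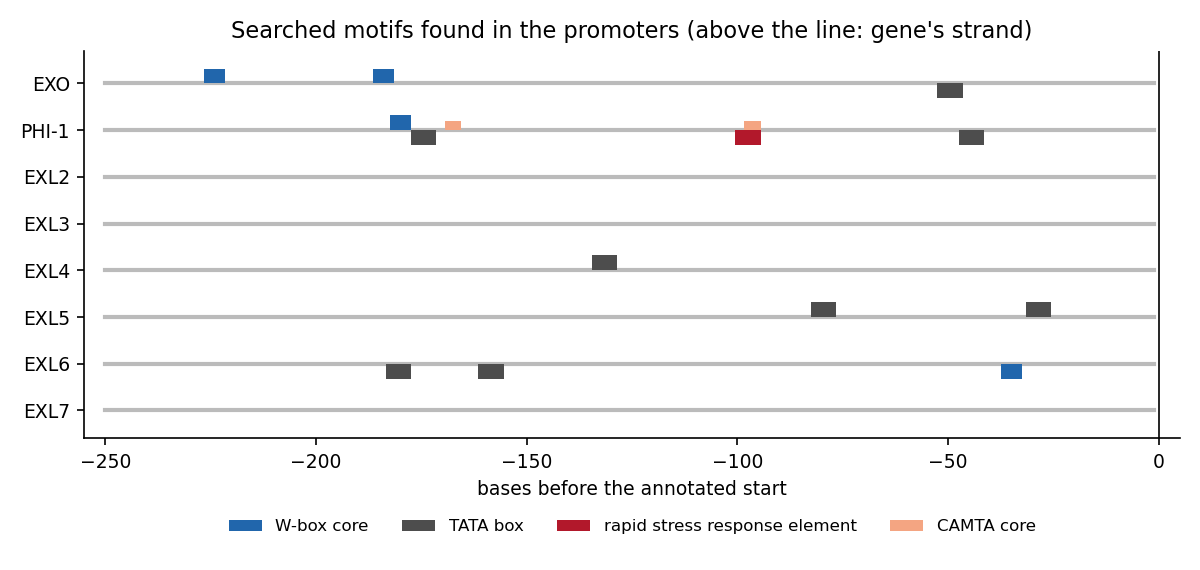
Positions of the searched motifs in the 250 bases before the annotated start of each of the 8 genes, in bases. Blocks above a line lie on the gene's strand and blocks below it on the other strand (CGCG reads the same on both and is drawn above). PHI-1 is the 1 gene with the rapid stress response element, and EXL2, EXL3 and EXL7 hold none of the motifs.

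Genes averaging 5 FPKM or more over the 3 exposures are called expressed here, and 6 members (EXO, PHI-1, EXL2, EXL3, EXL4 and EXL5) are among the 13946 expressed genes. All 6 stood highest at 20 s and lowest at 0 s, an order found in 13.6% of expressed genes, while 27.1% were highest at 20 s. PHI-1 counts as expressed only through its 20 s value, so its place in this count and those below is fixed by that value. The family was chosen for the high 20 s ratios of EXO and PHI-1, which favours that order. The shares are therefore printed for scale only. The summed FPKM of the 8 members was 165 at 0 s, 389 at 20 s and 213 at 60 s, a ratio of 2.35 at 20 s against 0 s. Without EXO and PHI-1 the sums of the other 6 members were 129, 257 and 166 FPKM, a ratio of 2.00.

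PHI-1 was low in growth light and had the highest ratio of the family at 20 s. It stood at 1.64 FPKM at 0 s, 20.5 FPKM at 20 s and 2.85 FPKM at 60 s. The 20 s value was the high one, and in FPKM the 60 s value lay above the 0 s value but far nearer to it than to the 20 s value. On the scale of FPKM + 1, used for every fold and log2 ratio given here, PHI-1 was 8.12-fold higher at 20 s than at 0 s, 5.58-fold lower at 60 s than at 20 s and 1.46-fold higher at 60 s than at 0 s. PHI-1 made up 0.994% of the family's summed FPKM at 0 s, 5.26% at 20 s and 1.34% at 60 s. Of all members it depended most on the pseudocount, with a log2 ratio at 20 s of 3.02 at 1 FPKM, 1.94 at 5 FPKM and 3.64 without a pseudocount.

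EXO, the founding member, showed the same shape at a far higher level. It stood at 34.9 FPKM at 0 s, 111 FPKM at 20 s and 44.4 FPKM at 60 s. EXO was 3.13-fold higher at 20 s than at 0 s, 2.48-fold lower at 60 s than at 20 s and 1.27-fold higher at 60 s than at 0 s. Its share of the family's sum was 21.1% at 0 s, 28.6% at 20 s and 20.8% at 60 s. EXO stood 76.5 FPKM higher at 20 s than at 0 s, the largest difference in FPKM of any member, followed by EXL3 with 69.5 FPKM.

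**Figure D2:**
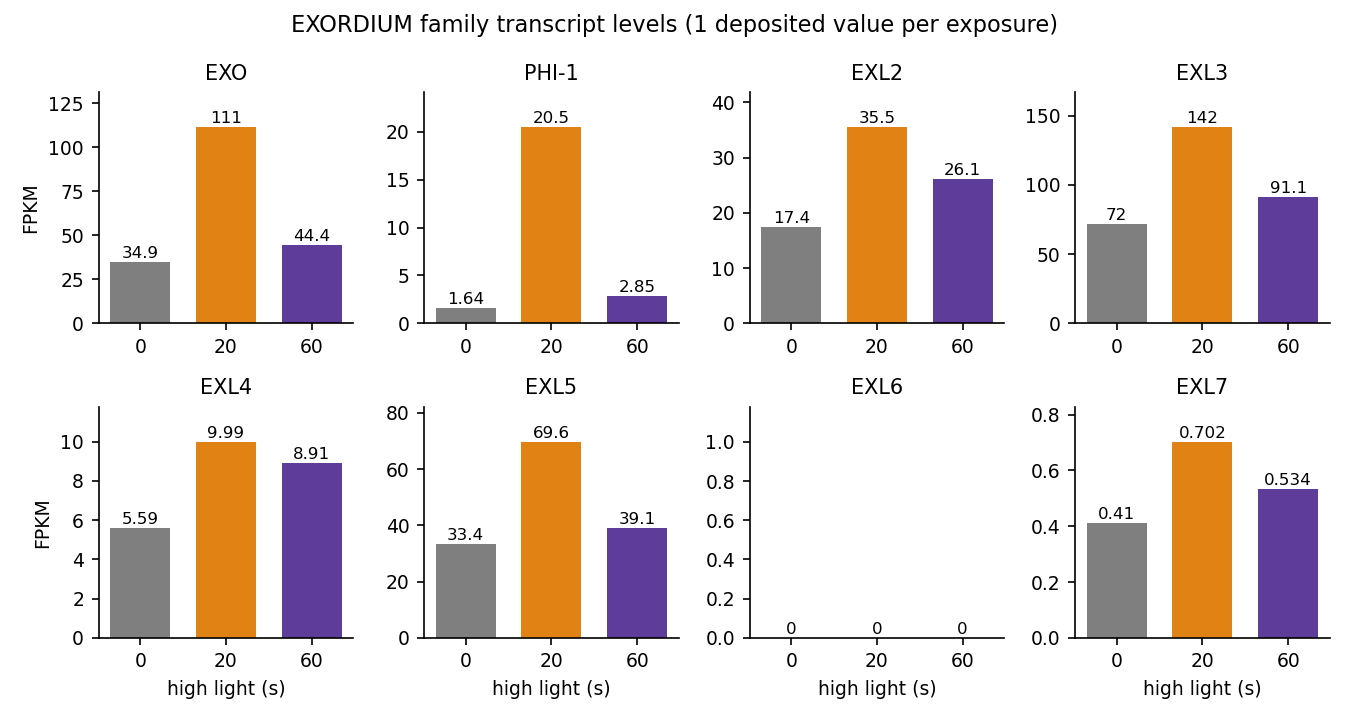
FPKM of each of the 8 members (vertical axis, from 0, scaled per panel) at 0, 20 and 60 s of high light (horizontal axis), with 1 deposited value per bar and no error. In 7 panels the 20 s bar is the tallest, from 0.702 FPKM in EXL7 to 142 FPKM in EXL3, and EXL6 is listed at 0 throughout.

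EXL3 was the most abundant member at every exposure. It stood at 72.0 FPKM at 0 s, 142 FPKM at 20 s and 91.1 FPKM at 60 s, and was 1.95-fold higher at 20 s than at 0 s and 1.55-fold lower at 60 s than at 20 s. EXL3 alone supplied 43.5% of the family's sum at 0 s and 36.4% at 20 s.

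EXL5, the closest relative of EXL3 in coding sequence, stood at 33.4 FPKM at 0 s, 69.6 FPKM at 20 s and 39.1 FPKM at 60 s. It was 2.05-fold higher at 20 s than at 0 s and 1.76-fold lower at 60 s than at 20 s. At 60 s it lay 1.16-fold above the control, the lowest ratio among the 6 expressed members.

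EXL2 stood at 17.4 FPKM at 0 s, 35.5 FPKM at 20 s and 26.1 FPKM at 60 s, and was 1.98-fold higher at 20 s than at 0 s. It was 1.35-fold lower at 60 s than at 20 s and 1.47-fold higher at 60 s than at 0 s, so its 60 s value lay about midway between the other exposures.

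EXL4, the closest relative of EXL2, stood at 5.59 FPKM at 0 s, 9.99 FPKM at 20 s and 8.91 FPKM at 60 s. It was 1.67-fold higher at 20 s than at 0 s and 1.11-fold lower at 60 s than at 20 s. At 60 s EXL4 was 1.503-fold above the control, the highest such ratio of the family at a pseudocount of 1 FPKM. PHI-1 was higher than EXL4 without a pseudocount (log2 ratios of 0.79 and 0.67), and EXL2 was higher with 5 FPKM (0.47 and 0.39).

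The remaining members were at or near the bottom of the scale. EXL7 stood at 0.410 FPKM at 0 s, 0.702 FPKM at 20 s and 0.534 FPKM at 60 s, in the same order as the other members but at a level where the pseudocount sets the fold. EXL6 was listed at 0 at every exposure. Neither counted as expressed, so neither entered the counts set against all expressed genes.

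Levels are per length and can be set side by side. At 0 s the order was EXL3, EXO, EXL5, EXL2, EXL4, PHI-1, EXL7 and EXL6. At 20 s PHI-1 stood above EXL4 (20.5 against 9.99 FPKM), the other places being as at 0 s, and at 60 s the order was again that of 0 s. With no error it cannot be said which neighbours in the order differ beyond their spread, and EXO and EXL5 at 0 s (34.9 and 33.4 FPKM) were, by their ratio, the closest neighbours above 0.

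At 20 s against 0 s, 6 of 6 expressed members were higher, as were 48.5% of all expressed genes. PHI-1, EXO and EXL5, 3 of the 6, were at least 2-fold higher, against 0.559% of expressed genes. At a limit of 1.5-fold, 6 of 6 members were higher, against 1.79%. EXL2 and EXL3 lay just under the 2-fold limit. The median log2 ratio of the 6 members was 1.01, and that of all 13946 expressed genes was 0.00 (middle 95% from -0.29 to 0.49). By size of ratio, PHI-1 ranked 14, EXO 25, EXL5 73, EXL2 81, EXL3 87 and EXL4 155 among the 13946. These ratios chose the family, so the shares are printed for scale and nothing is drawn from them.

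**Figure D3:**
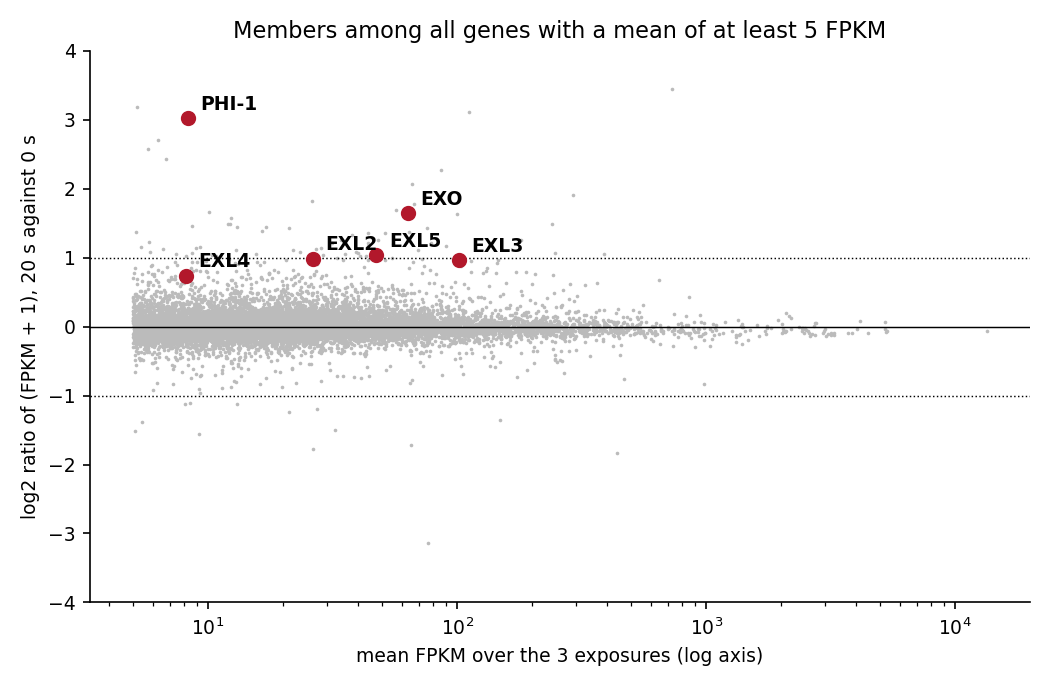
Log2 ratio of FPKM + 1 at 20 s against 0 s (vertical axis) against the mean FPKM over the 3 exposures (horizontal log axis) for expressed genes; grey points are 13930 genes, with 16 outside the axis, red points are the 6 members and dotted lines mark 2-fold. All red points lie above 0.49, the upper end of the middle 95% of genes, between 0.74 (EXL4) and 3.02 (PHI-1).

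At 60 s against 0 s all 6 members were still higher, as were 54.6% of all genes, but 0 of 6 were at least 2-fold higher (background 0.538%) and 1, EXL4, was at least 1.5-fold higher (background 1.69%). Their log2 ratios ran from 0.22 (EXL5) to 0.59 (EXL4), with a median of 0.44 beside 0.01 for all genes. PHI-1, EXL2 and EXL4 lay above the middle 95% of all genes, which ended at 0.49, and EXO, EXL3 and EXL5 lay within it. This comparison and the former share the 0 s value of each gene.

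At 60 s against 20 s all 6 members were lower, as were 42.4% of all genes. PHI-1 and EXO were at least 2-fold lower (background 0.237%), and 4 of 6 were at least 1.5-fold lower when EXL5 and EXL3 are added (background 1.24%). The median log2 ratio of the members was -0.72, beside 0.02 for all genes. The 20 s value is shared with the first comparison, so a gene picked for a high value at 20 s tends to lie lower at 60 s by that choice alone.

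**Figure D4:**
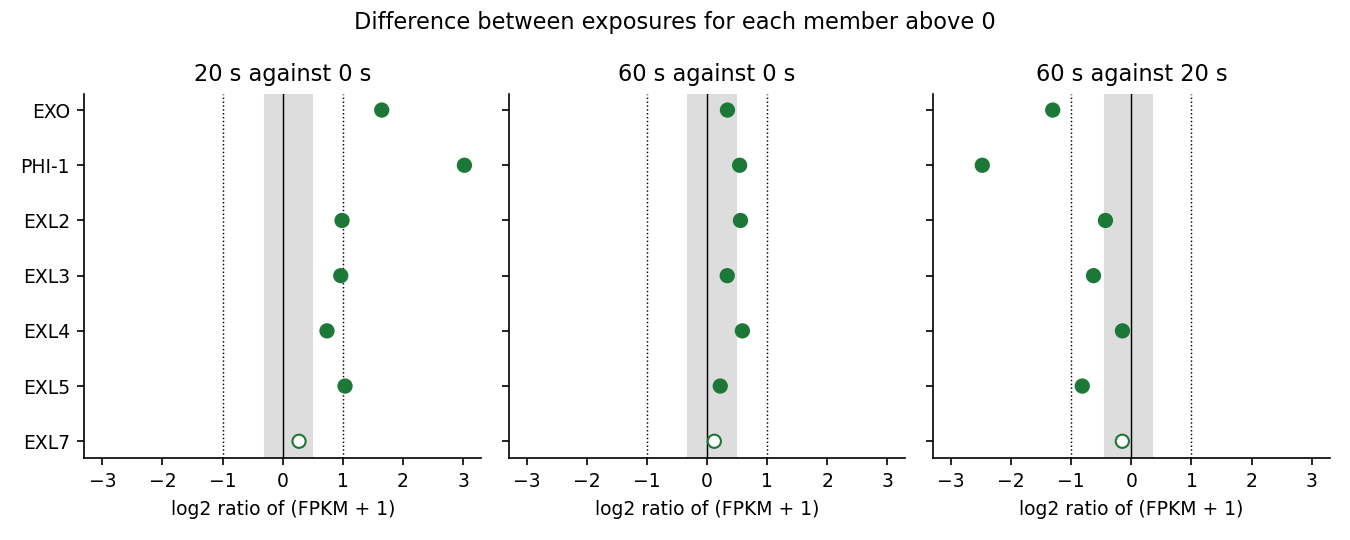
Log2 ratio of FPKM + 1 (horizontal axis) for the 7 members above 0, in each pair of exposures; filled points are expressed members, grey bands are the middle 95% of all expressed genes and dotted lines mark 2-fold. At 20 s against 0 s all 6 filled points lie beyond the band, and at 60 s against 0 s they lie between 0.22 and 0.59.

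The members differed in how much of the 20 s difference was still present at 60 s. In FPKM, the excess over 0 s at 60 s was 6.40% of the excess at 20 s for PHI-1, 12.4% for EXO and 15.6% for EXL5. It was 27.5% for EXL3, 47.9% for EXL2 and 75.5% for EXL4. The percentage has the 20 s excess as its denominator, so a high 20 s value lowers it by construction. No error is attached to these percentages, and the excess of EXL4 rests on 4.39 FPKM at 20 s and 3.32 FPKM at 60 s.

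**Figure D5:**
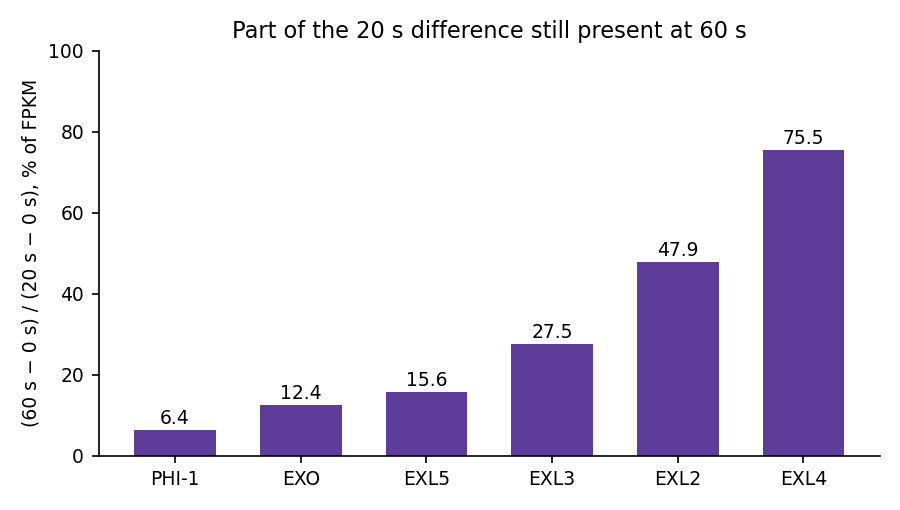
Excess of FPKM over the 0 s value at 60 s, as a percentage of the excess at 20 s (vertical axis, from 0), for the 6 expressed members, 1 value each with no error. The bars run from 6.40% in PHI-1 to 75.5% in EXL4.

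Other transcripts with a pattern near that of a member were found by the distance between pairs of log2 ratios (20 s and 60 s, each against 0 s), over 3 exposures. Nearest to PHI-1 were DREB26, an AP2/ERF transcription factor, at a distance of 0.58 (1.97, 15.1 and 3.29 FPKM at 0, 20 and 60 s), and TCH4, a touch-induced xyloglucan endotransglucosylase/hydrolase, at 0.95 (29.0, 125 and 42.8 FPKM). The next were the small nuclear RNA gene U1.5 (1.10), the non-coding AT1G15405 (1.12) and the N-acetyltransferase gene NATA1 (1.31). None of 11698 candidate genes lay within 0.5 of PHI-1. DREB26 counts as expressed only through its 20 s value, and NATA1 (0.941 FPKM at 0 s) only through its later values. All distances were computed at a pseudocount of 1 FPKM only, on which the ratios of PHI-1 depend.

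Nearest to EXO were the small nucleolar RNA gene AT1G74453 (distance 0.17), ERD5, a proline dehydrogenase (0.29; 9.52, 26.5 and 13.5 FPKM), AT4G28085 (0.42), ATSDI1, a sulfur deficiency gene (0.47), and TCH4 (0.47). Within 0.5 of EXO lay 6 candidates. AT4G28085 and ATSDI1 (3.41 and 2.53 FPKM at 0 s) count as expressed only through their 20 s values. EXL5 had 117 candidates within 0.5, and its nearest were JAL23, a jacalin-type lectin (0.010; 7.10, 15.6 and 8.49 FPKM), the trypsin inhibitor gene TI1 (0.058), AT1G25400 (0.0997), MDHAR, a monodehydroascorbate reductase (0.114), and CAX3, a vacuolar cation exchanger (0.115).

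The genes next to EXO and PHI-1 in the genome were listed at or near 0, from 0 to 0.0932 FPKM, so their differences could not be set beside those of these members. Of the 16 nearest genes on either side, 8 were expressed, all beside EXL2, EXL3, EXL4, EXL5 or EXL7, and 0 of these were 2-fold apart in any pair of exposures. At 20 s against 0 s, 3 of the 8 were higher and 5 lower, with log2 ratios between -0.34 and 0.09. Of all expressed genes, 48.5% were higher at 20 s and 0.559% at least 2-fold higher, so such counts are usual for any genes. The genes on both sides of EXL3, LPA2 (80.1 and 80.4 FPKM at 0 and 20 s) and AT5G51560 (20.8 and 22.2 FPKM), and of EXL2, AT5G64250 (20.8 and 20.3 FPKM) and AT5G64270 (26.1 and 25.7 FPKM), were nearly level. In the coordinates that the authors deposited, counted from 1 on the build TAIR9 of the submitters' processing notes, EXL2 lies on chromosome 5 from 25703929 to 25705316, EXL3 on chromosome 5 from 20939494 to 20940895 and EXL4 on chromosome 5 from 2938347 to 2939461. EXL5 lies on chromosome 2 from 7494536 to 7496016, EXL7 on chromosome 2 from 14817047 to 14818211 and EXL6 on chromosome 3 from 669103 to 670541. EXO lies on chromosome 4 from 5740297 to 5741524 and PHI-1 on chromosome 1 from 12851997 to 12853128. No member's locus overlaps another listed gene, and each value is for the whole gene, untranslated regions included.

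Genes whose transcripts depend on EXO in earlier work were divided at 20 s. KCS1, EXPA5, DELTA-TIP, AGP4 and WAK1 act in wax synthesis, wall loosening, vacuolar water transport and at the wall. Of these genes, 2 were higher and 3 lower at 20 s, and the median log2 ratio was -0.03. The count lay near the share of all expressed genes, of which 48.5% were higher at 20 s. By ratio at 20 s against 0 s, WAK1 (155, 162 and 118 FPKM at 0, 20 and 60 s) was the highest and KCS1 (97.5, 86.7 and 76.0 FPKM) the lowest.

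Among 18 genes of brassinosteroid synthesis and signalling, 14 were expressed, of which 7 were higher and 7 lower at 20 s (median 0.01). At 60 s against 0 s, 12 were higher and 2 lower (median 0.21), and 0 were 2-fold apart. Of all expressed genes, 54.6% were higher at 60 s than at 0 s, 0.538% were at least 2-fold higher then, and 48.5% were higher at 20 s. BZR1, a transcription factor of the pathway, stood at 18.9, 21.7 and 22.6 FPKM. It had the highest ratio of the 14 expressed genes at 20 s against 0 s (log2 ratio 0.19). BAS1, not counted as expressed, had a higher one (0.28), at 2.86, 3.67 and 4.61 FPKM. PRE1, a growth-promoting helix-loop-helix protein, stood at 8.31, 4.88 and 10.3 FPKM and had the lowest.

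Sugar starvation genes, listed because PHI-1 has been linked to low carbon, were higher at 20 s in 10 of 10 expressed members, 5 of them at least 2-fold, with a median log2 ratio of 1.11; of all expressed genes, 48.5% were higher and 0.559% at least 2-fold higher. At 60 s their median was 1.22, whereas that of the EXORDIUM members was 0.44. ASN1 and SEN1, both at least 2-fold higher at 20 s, stood at 4.15 and 4.01 FPKM at 0 s. They count as expressed only through their later values. By ratio at 20 s against 0 s, DIN10, of the raffinose synthase family, was the highest (44.0, 139 and 117 FPKM). DIN3, of branched-chain amino acid breakdown, was the lowest expressed gene (13.1, 14.9 and 15.8 FPKM). DIN9, not counted as expressed, was lower at 20 s (log2 ratio -0.11), at 2.16, 1.94 and 2.36 FPKM. The 4 touch genes were higher at 20 s in 4 of 4 (median 0.49) and lower at 60 s than at 20 s in 4 of 4 (median -0.72), beside 48.5% and 42.4% of all expressed genes. At 60 s against 0 s, 3 of the 4 were lower (median -0.23), whereas 6 of 6 EXORDIUM members and 54.6% of all expressed genes were higher. The other touch gene, TCH4, was higher at 60 s like the members (log2 ratio 0.55). By ratio at 20 s against 0 s, TCH4 was the highest and the calmodulin gene CAM2 (94.4, 103 and 71.0 FPKM) the lowest. The sugar starvation and touch lists were chosen with earlier results of these data known, so their counts are a description only.

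The labelled tissue and the makeup of the RNA were checked in the same table. The 3 leaf mesophyll markers RBCS1A, RCA and CA1 summed to between 20793 and 21638 FPKM. The 4 root markers (COBL9, EXPA7, PRP3 and IRT1) summed to between 0.157 and 0.476 FPKM, EXPA7 being at 0 throughout, and the 3 floral markers (AP3, PI and AG) to between 0.365 and 0.655 FPKM. The 3 guard cell markers (FAMA, MYB60 and KAT1) summed to between 32.4 and 37.2 FPKM. The mesophyll, floral and guard cell sums were each lowest at 20 s, and the root sum was lowest at 60 s. Over 33473 genes the FPKM summed to between 817000 and 858218. Ribosomal RNA genes summed to 136 FPKM at 0 s, 1503.5 FPKM at 20 s and 570 FPKM at 60 s, so this measure was highest at 20 s like the EXORDIUM members, and its part in their values was not tested.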

How the data were processed

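RNA from 9 shoot pools (3 per exposure) was sequenced by the authors, who deposited 1 FPKM value for each gene at each exposure. TopHat, Bowtie and Cufflinks and the build TAIR9 are listed in the submitters' processing notes. Not given in the sources used here are versions, read length, strand handling and the way the pools were combined. Column names assigned the 3 columns to exposures, and 0 columns of per-sample values were left unmapped.

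Log2((x + 1)/(y + 1)) was computed with a pseudocount of 1 FPKM, which understates differences of low genes. Expressed genes are those averaging 5 FPKM or more. Ratios of 1430 genes under 0.2 FPKM were binned to look for steps of whole reads, and the fullest bin, 0.004 wide, held at most 1.40%. The share to be had without steps was not computed, so whether the ratios gather on steps was not tested. No whole reads were recovered and depth is unknown. The log2 ratios and the motif search were the only steps tested, on planted changes and planted motifs.

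The members, the 4 context lists and the motifs were chosen with earlier results of these data known. Named genes were the 8 members and, for each expressed member at least 2-fold apart, the 5 expressed genes of nearest pattern. These patterns were taken from genes above 0 throughout, in a locus overlapping no other. Also named were the highest and lowest expressed gene of each list at 20 s, and BAS1 and DIN9, which lay beyond these. ASN1 and SEN1 were named for their low level at 0 s. The genome neighbours were added after values were seen. Promoters, coding sequences and names came from RefSeq's own coordinates on TAIR10.1, which matched 32690 of 33473 identifiers (97.7%). Coding sequences were aligned globally. Table starts were shifted by 1, since 8829 of 12238 genes sharing their end with the reference then shared its start. Python 3.11.15, pandas 2.3.3, numpy 2.4.6, matplotlib 3.10.9 and Biopython 1.88 were used.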

Additional observations from a re-analysis of the deposited data

How the results depend on the processing

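No paired analysis was possible because the table gives 1 value per exposure and none per pool; for the same reason leaving out each pool was not run. Over the 7 members above 0, 3 pairs of exposures and 5 other settings (pseudocounts of 0.1 and 5 FPKM, median centring, quantile normalization and, chosen after seeing the data, no pseudocount), 0 of 105 log2 ratios changed sign and 102 moved by less than 1.5-fold, a tolerance used because no replicate spread exists. The other 3 belonged to PHI-1, whose log2 ratio at 60 s against 20 s was -1.70 with a pseudocount of 5 FPKM. A change of pseudocount cannot change the sign of a ratio. Median centring shifted ratios by at most 0.02, less than the size of any of them. Only quantile normalization could therefore have changed a sign. The ratio of EXL7 at 20 s ran from 0.08 to 0.78 and was set by the pseudocount. The count of members at least 2-fold higher at 20 s was 3, with a pseudocount of 0.1 FPKM or none it was 4, and with 5 FPKM it was 2 (EXO and PHI-1). At a limit of 1.5-fold, 6 members were higher at 20 s against 0 s. At that limit 1 was higher after 60 s, EXL4, whose log2 ratio of 0.59 went under the limit with median centring (0.57), quantile normalization (0.56) and 5 FPKM (0.39), while PHI-1 also passed it with 0.1 FPKM (0.76) or none (0.79). Also at 1.5-fold, 4 were lower at 60 s against 20 s. In the whole table, genes at least 2-fold higher at 20 s numbered 78, and 122 with no minimum level; those lower numbered 20, and 36 with none. Between 20 s and 60 s, 20 were higher (42 with no minimum) and 33 lower (56). The cause was not tested.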

Other observations

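The members closest in coding sequence also stood next to each other in how much of the 20 s difference remained at 60 s, an order noticed after the values were seen and given without a test. PHI-1 and EXO, 71.9% identical, had 6.40% and 12.4% of it at 60 s. EXL5 and EXL3, 70.5% identical, had 15.6% and 27.5%. EXL2 and EXL4, 81.3% identical, had 47.9% and 75.5%. The pairs are neighbours in rank only. By value EXO and EXL5 lay nearer to each other than to their closest relatives, and EXL2 lay nearer to EXL3 than to EXL4. Members of a pair lie on different chromosomes or far apart on chromosome 5, and the read length that decides whether they share reads is unknown.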
